A study of Homo sapiens with 15 samples.

Results

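Protein arginine methyltransferases other than PRMT5 were measured in HSC-5, a human cutaneous squamous cell carcinoma line, after knockout of PRMT5 or of its partner WDR77. The members were the genes of the deposited count tables with the symbol PRMT1, PRMT2, PRMT3, CARM1, PRMT6, PRMT7 or PRMT9, which are 7 of 60649 listed genes. The question asked of them was compensation, that is, whether another methyltransferase of the family rose when PRMT5 or WDR77 was knocked out.

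RNA sequencing covered 15 libraries in 5 conditions with 3 labelled biological replicates each. The control, sgNeg, carried an empty guide vector and is labelled wild type. sgPRMT5-1 and sgPRMT5-2 carried 1 of 2 guides against PRMT5, and sgWDR77-1 and sgWDR77-2 carried 1 of 2 guides against WDR77, with the genotype labels PRMT5 Knockout and WDR77 Knockout. All 15 libraries, controls included, share the treatment label Neomycin, the Cas9 background and the lentiviral delivery. Whether each condition was a pool or a clone was not stated, so a difference between guides and a difference between clones cannot be told apart. PRMT5KO and WDR77KO below join the 6 libraries of both guides of a gene.

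Reads on genes ran from 5146711 to 6730428 per library. Levels are given as reads per 1000000 reads on genes after TMM scaling (CPM), which is a relative scale: fewer cells of a type and less RNA per cell cannot be told apart in bulk RNA. Reads outside genes made up 2.75% to 7.16% of the listed reads. They were above 5% in sgNeg replicate 2 at 7.16%, sgWDR77-1 replicate 2 at 6.04% and sgWDR77-1 replicate 3 at 5.70%. Replicates 1 and 3 of sgWDR77-1 were also the least alike of the 15 replicate pairs, with a scatter of 17.7 times counting error over genes, against 1.55 in the closest pair.

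The cell line label was checked against defining markers. TP63, the squamous lineage factor, averaged 374 CPM, the keratin KRT17 averaged 928 CPM and the stratifin gene SFN averaged 603 CPM over the 15 libraries. KRT5 ranged from 33.8 to 817 CPM, and KRT14, its usual basal partner, was nearly absent at 0.440 CPM. The summed level of the 6 squamous markers was 2375 ± 256 CPM for sgNeg (SD, n = 3), against 2239.5 ± 124 for guide sgPRMT5-1, 1831 ± 47.0 for sgPRMT5-2, 1812 ± 73.7 for sgWDR77-1 and 2569 ± 29.5 for the last guide, sgWDR77-2. The sum was not tested between conditions, and its bearing on the results below was not tested.

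Markers of other cells were low. The leukocyte markers CD3E and MS4A1 had 0 reads, PTPRC had 1 read and CD68 had 3 reads in all libraries together. Of 5 fibroblast markers, COL1A2 had 0 reads and DCN had 1 read, while COL1A1 averaged 10.7 CPM, and the summed level by condition ran from 8.28 to 13.1 CPM. Of 3 endothelial markers, PECAM1 had 10 reads and CDH5 averaged 20.02 CPM, with a summed level of 33.9 ± 2.44 CPM in sgWDR77-1 and 16.6 to 21.4 CPM in the other conditions. Of 3 melanocyte markers, TYR had 0 reads and PMEL averaged 3.48 CPM, with a summed level of 3.36 to 5.76 CPM by condition.

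Arginine methyltransferases transfer methyl groups from S-adenosylmethionine to the side chain nitrogens of arginine in proteins. Type I enzymes, to which PRMT1, PRMT2, PRMT3, CARM1 and PRMT6 belong, make asymmetric dimethylarginine. PRMT5, which works in a complex with WDR77, and PRMT9 are type II enzymes and make symmetric dimethylarginine, while PRMT7 is a type III enzyme that stops at monomethylarginine. Enzymes of different types can act on the same arginines, so loss of 1 enzyme can leave its sites to another. RNA levels report neither enzyme activity nor methylation, which were not measured in these libraries.

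The targeted genes were read first as a check of the labels. PRMT5, at chr14:22920525-22929408 on the minus strand, stood at 59.1, 49.6 and 67.8 CPM in sgNeg, at 33.0, 35.8 and 41.4 CPM in sgPRMT5-1 and at 44.2, 44.5 and 39.4 CPM in sgPRMT5-2. All 6 PRMT5KO libraries lay below every sgNeg library, and the level fell by 0.57 on the log2 scale (SE 0.12, limma voom adjusted p = 0.00874). WDR77, at chr1:111439890-111449256 on the minus strand, stood at 125, 114 and 119 CPM in sgNeg, at 30.8, 52.0 and 53.3 CPM in sgWDR77-1 and at 26.6, 24.9 and 22.0 CPM in sgWDR77-2. All 6 WDR77KO libraries lay below every sgNeg library, and the level fell by 1.86 on the log2 scale (SE 0.22, limma voom adjusted p = 9.00e-05). Each label was thus met at the RNA level of its own gene, although PRMT5 RNA fell by 32.8% only and an edited gene can still give RNA. WDR77 had no call in PRMT5KO (log2 fold change 0.11, limma voom adjusted p = 0.394) and PRMT5 had none in WDR77KO (log2 fold change 0.12, limma voom adjusted p = 0.733).

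**Figure D1:**
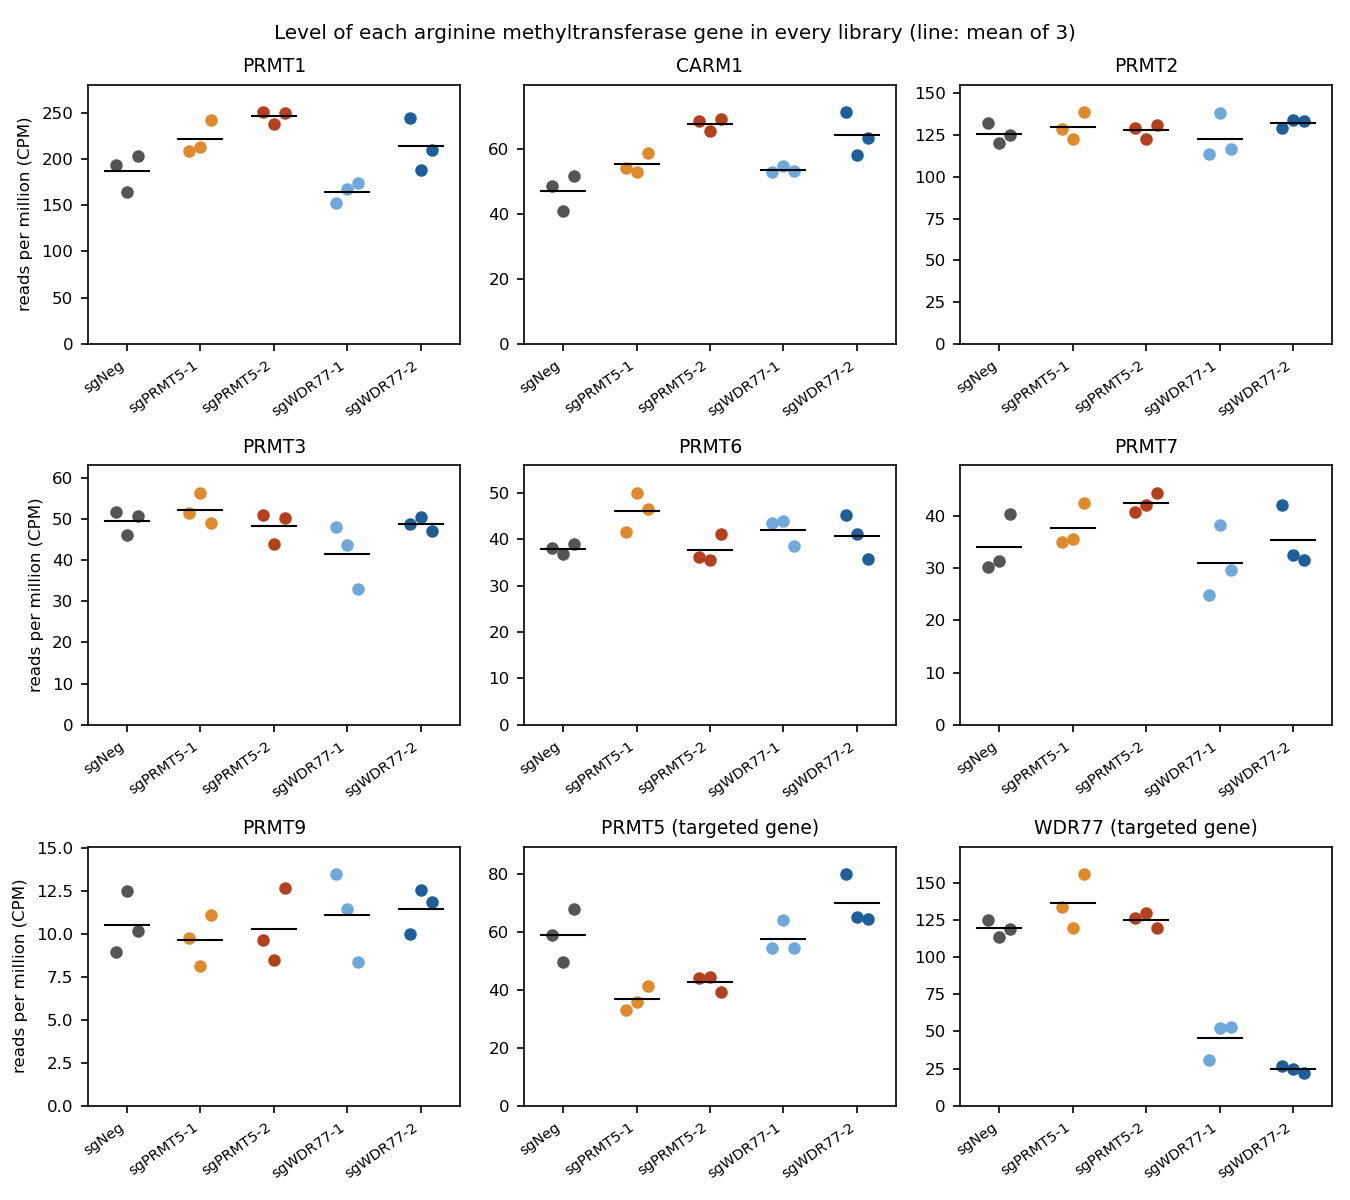
Level of the 7 members and of the targeted genes PRMT5 and WDR77 in each of the 15 libraries. The vertical axes are TMM-scaled CPM from 0, each point is a library, colours mark the 5 conditions and lines are means of 3. The PRMT1 and CARM1 points of both PRMT5 guides lie above all 3 sgNeg points.

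Between genes, levels were compared only per kilobase of exons. With the union of all annotated exons as the length, PRMT1, the main type I enzyme of most cells, was the most abundant of the family in sgNeg at 39.0 ± 4.25 CPM per kilobase (SD, n = 3). PRMT5 followed at 18.0 ± 2.78, PRMT2 at 16.6 ± 0.806, CARM1 at 10.6 ± 1.25, PRMT3 at 9.01 ± 0.546, PRMT6 at 8.75 ± 0.253, PRMT9 at 2.67 ± 0.453 and PRMT7 at 2.45 ± 0.401 CPM per kilobase. The neighbours PRMT5 and PRMT2, CARM1 and PRMT3, PRMT3 and PRMT6, and PRMT9 and PRMT7 overlapped in their library ranges and were not separated by range. Within libraries, CARM1 was above PRMT3 in 3 of 3, and the upper gene of each other pair in 2 of 3. PRMT1 kept the first place in all 5 conditions.

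The lower places of that order depended on the length used, because the union of exons is far longer than the main transcript for some members. By the MANE Select transcript, a curated main transcript per gene, PRMT1 stood at 141 ± 15.3, PRMT2 at 53.5 ± 2.60, PRMT5 at 25.5 ± 3.95 and PRMT3 at 19.4 ± 1.17 CPM per kilobase in sgNeg. PRMT6 followed at 14.5 ± 0.419, CARM1 at 14.3 ± 1.68, PRMT7 at 9.11 ± 1.49 and PRMT9 at 3.05 ± 0.517 CPM per kilobase. PRMT7 thus passed PRMT9 and PRMT2 passed PRMT5, while PRMT1 remained first.

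**Figure D2:**
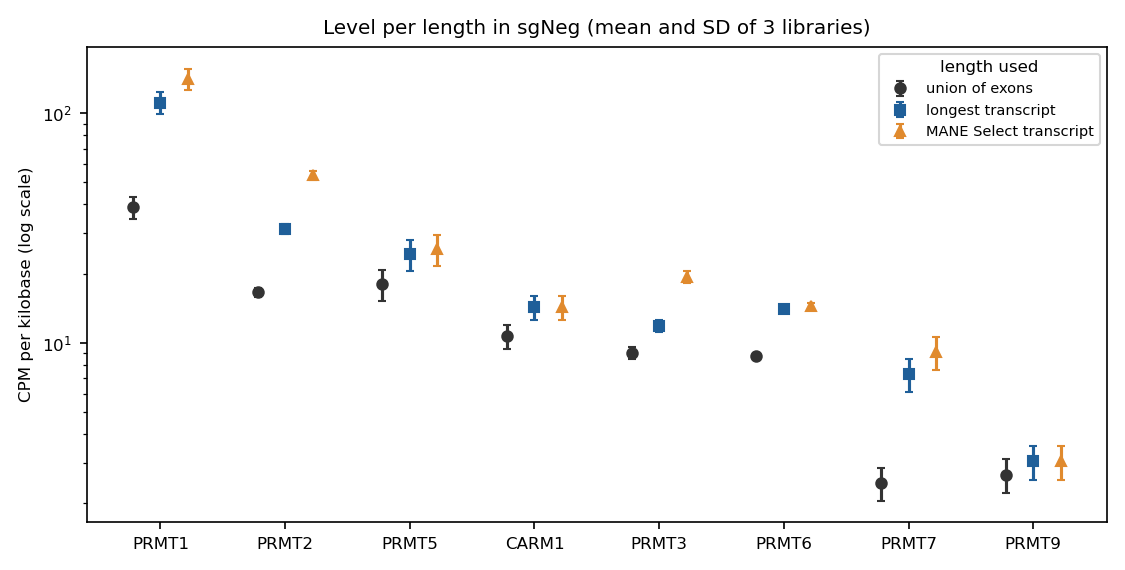
Level per length of the 7 members and PRMT5 in the 3 sgNeg libraries. The vertical axis is CPM per kilobase on a log scale, points are means, bars are 1 SD and shapes mark the length definition. PRMT1 is highest under all 3 definitions and PRMT7 moves most between them.

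Against sgNeg, 2 of the 7 members rose in PRMT5KO and 0 fell. They were PRMT1 and CARM1, 2 type I enzymes. Over all 14071 genes tested, 8.73% rose and 8.30% fell, beside the members' count of 2. That background was itself unsteady, with 483 to 3562 genes called when a library was left out, against 2397. The median log2 fold change of the members was 0.11, beside -0.01 over all genes tested. The other 5 members had log2 fold changes from -0.10 to 0.23 and did not pass. In TMM-scaled CPM, every PRMT5KO library lay above every sgNeg library for the same 2 members, a pattern held by 11.5% of 14061 genes. For 0 members did every PRMT5KO library lie below every sgNeg library, a pattern held by 7.76%.

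PRMT1, gene ENSG00000126457.22 at chr19:49675786-49689029 on the plus strand, deposits most asymmetric dimethylarginine in many cell types. Its levels were 193, 164 and 203 CPM in sgNeg, 209, 214 and 242 CPM in sgPRMT5-1 and 251, 238 and 249.9 CPM in sgPRMT5-2. All 6 PRMT5KO libraries were above the highest control on the TMM scale. By library totals alone, sgPRMT5-1 replicate 1 (1366 of 6704352 reads) lay below sgNeg replicate 3 (1120 of 5434211 reads). The values of the guides overlapped, since the highest sgPRMT5-1 library passed the lowest of sgPRMT5-2. PRMT1 rose by 24.3% in PRMT5KO (95% CI 9.20% to 41.4%, log2 fold change 0.31, SE 0.087, limma voom adjusted p = 0.0273, higher in 6 of 6 libraries).

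That call was near the threshold and was lost in most fits that left out a library. Without sgNeg replicate 1, without sgNeg replicate 2 and without sgPRMT5-1 replicate 3, the limma voom adjusted p of PRMT1 was 0.0824, 0.14997 and 0.0528. Leaving out sgPRMT5-2 replicate 1, 2 or 3 gave 0.0570, 0.0577 and 0.0567. The other 3 of the 9 fits kept the call, and over all 9 the log2 fold change stayed between 0.22 and 0.35.

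By guide, PRMT1 rose with sgPRMT5-2, by 31.8% against sgNeg (95% CI 17.8% to 47.4%, log2 fold change 0.40, limma voom adjusted p = 0.000391, higher in 3 of 3 libraries). That call held in all 6 fits that left out a library, with log2 fold changes from 0.30 to 0.46. With sgPRMT5-1 the change was 17.6% (95% CI 2.30% to 35.1%, log2 fold change 0.23) and did not pass (limma voom adjusted p = 0.192). On the TMM scale, 3 of 3 libraries were above every control. With a library left out that log2 fold change ran from 0.14, without sgNeg replicate 2, to 0.29. Between the guides the difference was 0.16 on the log2 scale (limma voom adjusted p = 0.103), so PRMT1 was not shown to differ between them. It became a call without sgPRMT5-1 replicate 3 (log2 fold change 0.23, limma voom adjusted p = 0.000427, range over the 6 fits 0.000427 to 0.371).

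CARM1, gene ENSG00000142453.12 at chr19:10871553-10923075 on the plus strand, is a transcriptional coactivator that methylates histone H3 and RNA-binding proteins. It stood at 48.6, 40.9 and 51.7 CPM in sgNeg, at 54.1, 52.8 and 58.7 CPM in sgPRMT5-1 and at 68.6, 65.6 and 69.0 CPM in sgPRMT5-2. In the WDR77 knockouts it stood at 52.8, 54.6 and 53.3 CPM with sgWDR77-1 and at 71.2, 58.1 and 63.2 CPM with sgWDR77-2. In TMM-scaled CPM all 12 knockout libraries were above every control, with the second guide of each gene higher than the first. CARM1 was the only member with all 12 above, which 2.14% of 14061 genes shared, with 2.62% showing the reverse. By library totals alone that separation was lost. There sgPRMT5-1 replicate 2 (311 of 5958936 reads) and sgWDR77-1 replicate 1 (286 of 5489385 reads) lay below sgNeg replicate 3 (285 of 5434211 reads).

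In the tests, CARM1 rose by 29.4% in PRMT5KO (95% CI 8.96% to 53.6%, log2 fold change 0.37, SE 0.12, limma voom adjusted p = 0.0413, higher in 6 of 6 libraries). The call was lost in 7 of the 9 fits that left out a library. Without sgNeg replicates 1, 2 and 3 in turn the adjusted p was 0.116, 0.202 and 0.0709, and without sgPRMT5-1 replicate 3 it was 0.0637. Without sgPRMT5-2 replicates 1, 2 and 3 in turn it was 0.0823, 0.0839 and 0.0796. The log2 fold change stayed between 0.28 and 0.42 throughout. Scaling by library totals alone, with a log2 fold change of 0.31, and dropping the filter on low counts, with 0.37, also ended the call (limma voom adjusted p = 0.0654 and 0.0664).

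CARM1 rose by 44.1% with sgPRMT5-2 (95% CI 25.5% to 65.6%, log2 fold change 0.53, limma voom adjusted p = 0.000199, higher in 3 of 3 libraries). This was the largest change of any member against sgNeg, and it held in all 6 fits that left out a library, with log2 fold changes from 0.43 to 0.60. With sgPRMT5-1 the difference was 16.5% (95% CI -1.27% to 37.5%) and did not pass (limma voom adjusted p = 0.2996). Its log2 fold change of 0.22 became 0.12 without sgNeg replicate 2, the library with the most reads outside genes. CARM1 was higher with sgPRMT5-2 than with sgPRMT5-1 by 0.30 on the log2 scale (SE 0.088, limma voom adjusted p = 0.0197, 3 of 3 libraries above every library of the other guide). That call between guides was lost in 5 of 6 fits that left out a library and in 1 fit of all 15 libraries (log2 fold change 0.30, adjusted p = 0.0842).

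Part of CARM1 overlaps another gene, which matters because the strand setting of the read counting was not stated. Of its exon bases, 20.2% are shared with YIPF2 on the opposite strand, a gene for a Golgi membrane protein. YIPF2 averaged 119 reads per library and its log2 fold change was 0.18 in PRMT5KO (limma voom adjusted p = 0.443) and 0.27 with sgPRMT5-2 (limma voom adjusted p = 0.199). It was 0.10 with sgPRMT5-1, 0.22 in WDR77KO, 0.21 with sgWDR77-1 and 0.25 with sgWDR77-2 (limma voom adjusted p = 0.812, 0.561, 0.605 and 0.477). PRMT1 shares 3.57% of its exon bases with a noncoding gene on the opposite strand that had 0 reads.

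**Figure D3:**
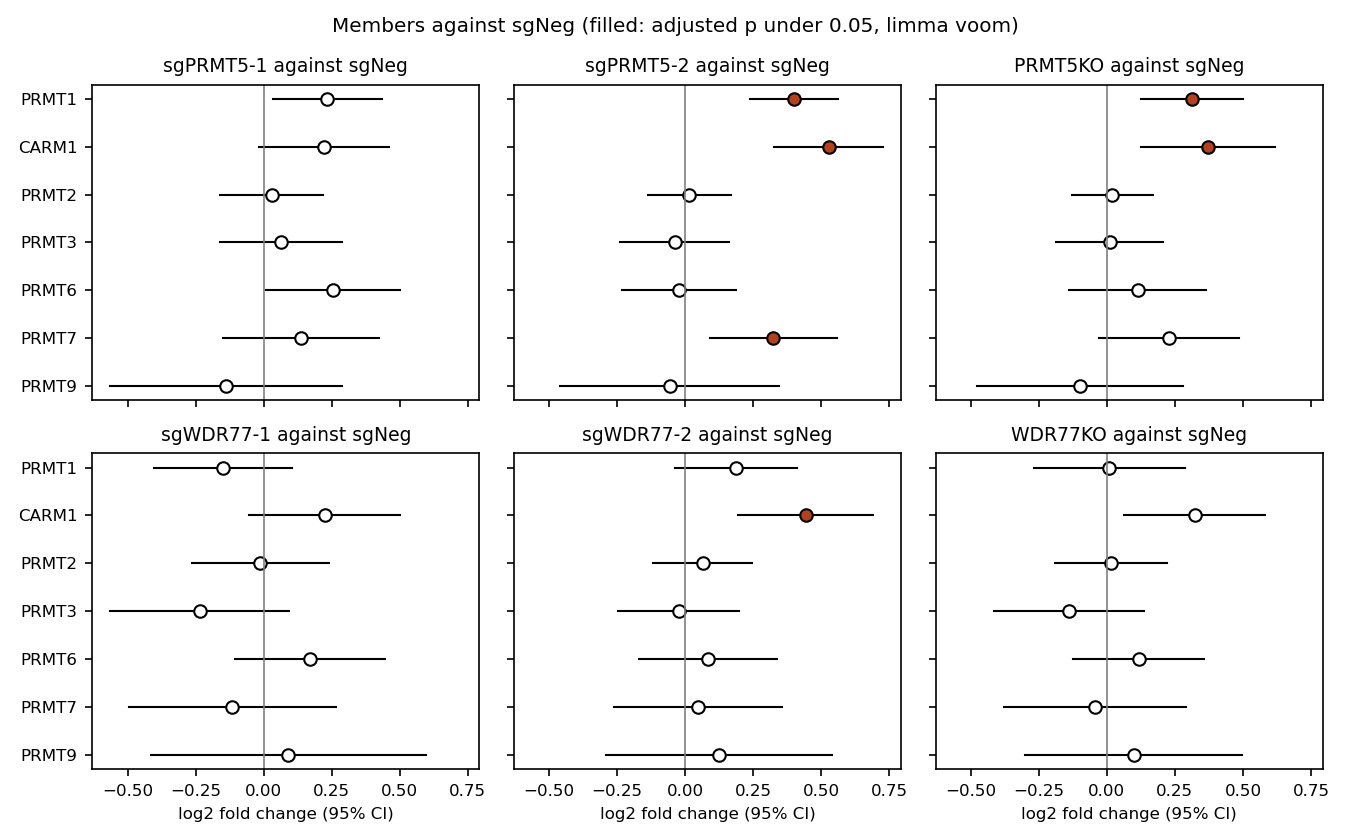
Log2 fold change of each member against sgNeg, for both guides of each gene and for the joined knockouts. Horizontal bars are 95% confidence intervals from limma voom, and filled points have an adjusted p under 0.05. PRMT1 and CARM1 are filled in PRMT5KO and sgPRMT5-2, PRMT7 in sgPRMT5-2, and CARM1 in sgWDR77-2.

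PRMT7, gene ENSG00000132600.17 at chr16:68310951-68360852 on the plus strand, was the third member called with sgPRMT5-2. Its levels were 30.3, 31.4 and 40.4 CPM in sgNeg, 34.99, 35.6 and 42.5 CPM in sgPRMT5-1 and 40.7, 42.2 and 44.3 CPM in sgPRMT5-2. On the TMM scale the sgPRMT5-2 libraries all exceeded the controls, the nearest by a narrow margin. By library totals alone, sgPRMT5-2 replicates 1 and 2 (262 of 6730428 and 248 of 6058519 reads) lay below sgNeg replicate 3 (223 of 5434211 reads). PRMT7 rose by 25.2% with this guide (95% CI 6.39% to 47.3%, log2 fold change 0.32, SE 0.11, limma voom adjusted p = 0.0269, higher in 3 of 3 libraries).

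The PRMT7 call was not firm. It was lost without sgNeg replicate 1 (adjusted p = 0.110), sgNeg replicate 2 (0.0710), sgPRMT5-2 replicate 2 (0.0518) and sgPRMT5-2 replicate 3 (0.0737), over a range of 0.00383 to 0.110 in the 6 limma voom fits. In the same order, the log2 fold changes were 0.25, 0.27, 0.34 and 0.31. The call was also lost under library totals alone, with no filter and in 1 fit of all 15 libraries (adjusted p = 0.0873, 0.0533 and 0.0950), with log2 fold changes from 0.24 to 0.33. In PRMT5KO as a whole, PRMT7 had a log2 fold change of 0.23 and did not pass (limma voom adjusted p = 0.197). With a library left out it ran from 0.14, without sgNeg replicate 1, to 0.33. Its exon bases overlap SMPD3 on the opposite strand by 13.9%, a gene with a mean count of 4.11.

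Altogether 3 of 7 members rose with sgPRMT5-2 and 0 fell, while over all 14184 genes tested 20.9% rose and 19.3% fell. The median member log2 fold change was 0.01, beside 0.00 over all genes. With sgPRMT5-1, 0 of 7 members were called by limma voom and 0 by limma-trend, and 2 members, PRMT1 and PRMT6, had an unadjusted p under 0.05. There 1.52% of 14102 genes rose and 2.24% fell, and 2721 of them had an unadjusted p under 0.05. The median member log2 fold change with sgPRMT5-1 was 0.14, beside 0.00 over all genes.

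The promoters of PRMT1, CARM1 and PRMT7 were read because these were the 3 members called with sgPRMT5-2, a choice made after their values were seen. RefSeq (GRCh38.p14) held a promoter window for all 7 members, each from 250 bases before to 50 bases after a RefSeq start. That start need not be the outermost annotated end of the gene: for PRMT1 it lies inside the location given above. Below are the windows of the 3 members, PRMT1 at chr19:49677021-49677320, CARM1 at chr19:10871303-10871602 and PRMT7 at chr16:68310769-68311068, all on the plus strand and written 5′ to 3′. Capitals mark the GC box GGGCGG, read on both strands so that CCGCCC is its reverse, and the CCAAT box, with ATTGG as its reverse. For CARM1 and PRMT7 the table held 2 windows, of which the one nearest to the annotated gene start is shown.
PRMT1: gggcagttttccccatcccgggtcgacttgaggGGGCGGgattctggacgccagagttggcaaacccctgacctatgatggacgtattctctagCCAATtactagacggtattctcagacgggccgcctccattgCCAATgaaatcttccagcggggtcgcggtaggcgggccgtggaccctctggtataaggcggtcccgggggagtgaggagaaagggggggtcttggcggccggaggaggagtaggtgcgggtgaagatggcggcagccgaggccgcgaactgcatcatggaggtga
CARM1: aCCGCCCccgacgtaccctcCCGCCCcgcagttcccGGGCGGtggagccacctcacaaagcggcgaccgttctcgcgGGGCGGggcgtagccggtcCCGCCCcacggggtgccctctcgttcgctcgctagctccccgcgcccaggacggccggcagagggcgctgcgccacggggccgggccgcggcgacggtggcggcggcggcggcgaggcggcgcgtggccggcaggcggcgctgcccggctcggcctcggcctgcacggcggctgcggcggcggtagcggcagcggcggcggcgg
PRMT7: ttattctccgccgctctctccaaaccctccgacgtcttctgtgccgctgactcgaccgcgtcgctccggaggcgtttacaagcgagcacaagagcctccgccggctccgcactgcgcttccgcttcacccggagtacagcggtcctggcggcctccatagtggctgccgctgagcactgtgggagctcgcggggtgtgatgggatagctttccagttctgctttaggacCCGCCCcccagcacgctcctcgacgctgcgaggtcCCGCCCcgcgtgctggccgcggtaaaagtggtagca
The GC box, a binding motif of SP-family factors, occurred in 45.0% of 35116 promoter windows of the same length. The windows held 1 copy for PRMT1, 5 for CARM1 and 2 for PRMT7. The other members had 3 copies in PRMT2, 2 in PRMT3, 2 in PRMT9 and 0 in PRMT6, so the motif did not set the members that rose apart. CCAAT, found in 34.6% of all windows, was present in PRMT1 alone of the 7 members, with 2 copies. The E box CACGTG, in 7.26% of windows, and the ETS motif CCGGAAG, in 10.3%, had 1 copy each in PRMT3 and 0 in the other 6 members. The 10-base NRF1 motif, in 1.24% of windows, was in none of the 7. GC content was 62% for PRMT1, 82.3% for CARM1 and 65.7% for PRMT7, beside a median of 58.7% over all windows, and the windows held 22, 56 and 33 CG pairs against a median of 14. Members that were not called were above these medians too, with GC contents of 72% for PRMT2, 75% for PRMT3, 63% for PRMT6 and 66.3% for PRMT9, and 36, 48, 25 and 33 CG pairs. A match is a stretch of letters and not a shown binding site.

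The remaining type I enzymes showed no call against sgNeg. PRMT6, gene ENSG00000198890.9 at chr1:107056674-107067636 on the plus strand, methylates histone H3 and has a main transcript of 1 exon. It stood at 38.1, 36.8 and 39.0 CPM in sgNeg, at 41.6, 49.9 and 46.6 CPM in sgPRMT5-1 and at 36.2, 35.5 and 41.1 CPM in sgPRMT5-2. The sgPRMT5-1 libraries all exceeded the controls and those of sgPRMT5-2 straddled them. With sgPRMT5-1 the log2 fold change was 0.25 (limma voom adjusted p = 0.241) and with sgPRMT5-2 it was -0.02 (limma voom adjusted p = 0.878). The direct difference of sgPRMT5-2 from sgPRMT5-1 was -0.28 on the log2 scale (limma voom adjusted p = 0.0706), just short of a call. It became a call under library totals alone (log2 fold change -0.31, adjusted p = 0.0446), without sgPRMT5-1 replicate 1 (-0.37, 0.0446) and without sgPRMT5-1 replicate 3 (-0.26, 0.0390), over a limma voom range of 0.0390 to 0.249 in the 6 fits that left out a library.

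PRMT2, gene ENSG00000160310.18 at chr21:46635595-46665124 on the plus strand, carries an SH3 domain and acts as a nuclear receptor coactivator. It was the steadiest member, with condition means of 123 to 132 CPM and library values of 113 to 139 CPM. Its log2 fold changes against sgNeg ran from -0.01 to 0.06 over the 6 comparisons, and the highest upper limit of its 95% CI was 18.5%. PRMT3, gene ENSG00000185238.13 at chr11:20387558-20509338 on the plus strand, methylates the ribosomal protein RPS2. It ranged from 33.0 CPM in sgWDR77-1 replicate 3 to 56.2 CPM in sgPRMT5-1 replicate 2, with condition means of 41.6 to 52.2 CPM. The largest difference of PRMT3 was -0.24 in sgWDR77-1 (95% CI -0.56 to 0.09, limma voom adjusted p = 0.446). With a library left out that difference ran from -0.36 to -0.08.

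PRMT9, gene ENSG00000164169.13 at chr4:147637785-147684163 on the minus strand, is the other type II enzyme of the family and methylates the splicing factor SF3B2. It had the fewest reads of the 7, from 46 to 76 per library, or 8.15 to 13.5 CPM. Every condition overlapped sgNeg, and its log2 fold changes ran from -0.14 to 0.12. The 95% CI was -28.1% to 21.3% in PRMT5KO and reached 51.1% with sgWDR77-1 and 45.5% with sgWDR77-2, so a rise of that size was not excluded. No call was made on this member, which shares the symmetric product of PRMT5. PRMT8, a type I enzyme known for its restriction to brain, is in the family but not in the list of members, and had 1 read over all 15 libraries.

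In WDR77KO, 0 of 7 members were called by limma voom and 0 by limma-trend, and 1 had an unadjusted p under 0.05. Over all 14073 genes tested, 0.838% rose and 2.55% fell, and 2274 had an unadjusted p under 0.05. That 1 member was CARM1, with a change of 25.1% (95% CI 4.57% to 49.8%, log2 fold change 0.32, limma voom adjusted p = 0.186, higher in 6 of 6 libraries). When all 15 libraries were fitted together its limma voom adjusted p was 0.0372 at the same log2 fold change of 0.32. In TMM-scaled CPM, every WDR77KO library lay above every sgNeg library for CARM1 alone of the 7, a pattern held by 4.42% of 14061 genes. For 0 members did every WDR77KO library lie below every sgNeg library, a pattern held by 6.22%. The median member log2 fold change was 0.02, beside 0.00 over all genes.

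PRMT1 was not called with either guide against WDR77. It stood at 152, 167 and 174 CPM with sgWDR77-1 and at 244, 188 and 210.1 CPM with sgWDR77-2. Of the sgWDR77-1 libraries 1 lay below every control and of the sgWDR77-2 libraries 2 lay above. The log2 fold change against sgNeg was -0.15 for sgWDR77-1 (limma voom adjusted p = 0.539) and 0.19 for sgWDR77-2 (limma voom adjusted p = 0.336), so neither passed. The direct difference between these guides was 0.36 (95% CI 0.09 to 0.64) with an adjusted p of 0.301 by limma voom.

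With sgWDR77-2, 1 of 7 members rose, 0 fell and the member was CARM1, by 35.8% (95% CI 14.3% to 61.5%, log2 fold change 0.44, limma voom adjusted p = 0.0417, higher in 3 of 3 libraries). Over all 14038 genes tested, 1.89% rose and 3.08% fell. The CARM1 call was lost in each of the 6 fits without a library, at log2 fold changes of 0.35 to 0.53. The adjusted p was 0.0882, 0.1498 and 0.0597 without sgNeg replicates 1, 2 and 3, and 0.0711, 0.0602 and 0.0703 without sgWDR77-2 replicates 1, 2 and 3.

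With sgWDR77-1, 0 of 7 members were called by limma voom and 0 by limma-trend, and 0 had an unadjusted p under 0.05. In that comparison 1.04% of 14202 genes rose and 1.67% fell, and 2515 had an unadjusted p under 0.05. CARM1 had a log2 fold change of 0.22 there (limma voom adjusted p = 0.390), which became 0.12 without sgNeg replicate 2.

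**Figure D4:**
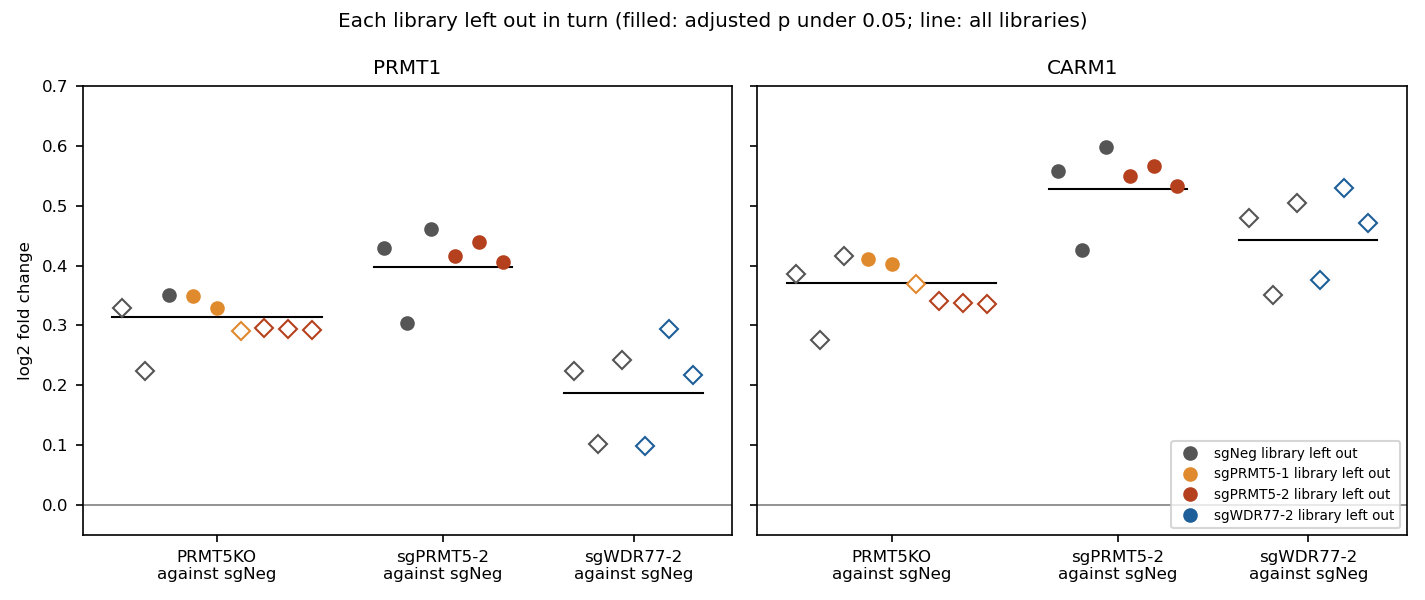
Log2 fold change of PRMT1 and CARM1 when each library in turn was left out, for 3 comparisons against sgNeg. The vertical axis is log2 fold change, colours mark the condition of the library left out, filled points have an adjusted p under 0.05 in limma voom and lines give the value with all libraries. All points lie above 0, and those of sgPRMT5-2 are all filled.

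Direct comparisons between knockouts asked whether the members answered the loss of either partner alike. PRMT1 was higher in PRMT5KO than in WDR77KO by 24.7% (95% CI 7.87% to 44.3%, log2 fold change 0.32, SE 0.0999, limma voom adjusted p = 0.0406), the only 1 of 7 members called. Of 14015 genes tested, 7.99% were higher and 6.01% lower in PRMT5KO. The PRMT1 values of the knockouts overlapped, from 209 to 251 CPM in PRMT5KO and from 152 to 244 CPM in WDR77KO. PRMT7 was higher by 0.29 on the log2 scale and did not pass (limma voom adjusted p = 0.102). CARM1 differed by 0.06 (95% CI -0.15 to 0.27, limma voom adjusted p = 0.701), so no difference of CARM1 between knockouts was detected.

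The PRMT1 difference between knockouts held in 3 of 12 fits without a library, those without sgPRMT5-1 replicate 1, sgPRMT5-1 replicate 2 and sgWDR77-2 replicate 1. The limma voom adjusted p without sgPRMT5-1 replicate 3 was 0.0794, without sgPRMT5-2 replicates 1, 2 and 3 it was 0.115, 0.1002 and 0.115, and without sgWDR77-1 replicates 1, 2 and 3 it was 0.0669, 0.122 and 0.0991. Without sgWDR77-2 replicates 2 and 3 it was 0.0750 and 0.0538. Over the 12 fits the log2 fold change of PRMT1 stayed between 0.26 and 0.38. Without sgWDR77-2 replicate 1, PRMT7 was called too (log2 fold change 0.34, adjusted p = 0.0376). RLE scaling and library totals alone ended the PRMT1 call at log2 fold changes of 0.29 and 0.26 (adjusted p = 0.0532 and 0.0817), as did leaving out the 3 libraries with over 5% of reads outside genes, a choice made after seeing the data (0.24, adjusted p = 0.233).

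Between the guides of PRMT5, 1 of 7 members was called, CARM1, while 9.94% of 13976 genes were higher and 9.31% lower with sgPRMT5-2. The CARM1 difference held in 1 of 6 fits without a library, with log2 fold changes of 0.28 to 0.35 over the 6. Its limma voom adjusted p was 0.0815 and 0.0727 without sgPRMT5-1 replicates 1 and 2, 0.000833 without sgPRMT5-1 replicate 3, and 0.0772, 0.0625 and 0.0938 without sgPRMT5-2 replicates 1, 2 and 3. Between the guides of WDR77, 0 of 7 members were called by limma voom and 0 by limma-trend, 1 had an unadjusted p under 0.05, and 0.0999% of 14011 genes were higher and 0.0214% lower with sgWDR77-2, with 1758 at an unadjusted p under 0.05. Asked over all 5 conditions at once, 2 of 7 members differed by the limma F test, PRMT1 (adjusted p = 0.00127) and CARM1 (adjusted p = 0.00324), and 35.8% of 14061 genes did. PRMT7 did not pass (adjusted p = 0.113), but did without sgWDR77-1 replicate 2 (0.0380). The fit without the 3 libraries above 5% of reads outside genes held a single sgWDR77-1 library, so no call was read from it.

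Shares of the family were described and not tested. Per kilobase of union exons, PRMT1 made up 36.4% ± 0.871 of the sum of the 7 members and PRMT5 in sgNeg (SD, n = 3), 41.1% ± 0.814 in sgPRMT5-1 and 42.9% ± 0.201 in sgPRMT5-2. Its share was 33.5% ± 2.58 in sgWDR77-1 and 36.6% ± 2.01 in sgWDR77-2. CARM1 made up 9.93% ± 0.321 in sgNeg and 11.1% to 12.8% in the 4 knockout conditions. PRMT5 itself made up 16.7% ± 1.20 in sgNeg, 9.97% ± 0.540 in sgPRMT5-1 and 10.9% ± 0.964 in sgPRMT5-2. The shares depended on the length used. By the MANE Select transcript they were 50.2% for PRMT1, 5.09% for CARM1 and 9.09% for PRMT5 in sgNeg. The loss of PRMT5 reads raises every other share by itself, so these shares do not show a rise of a member.

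The sum of the 7 members without PRMT5 does not carry that dependence. It was 89.1 ± 6.60 CPM per kilobase of union exons in sgNeg, 101 ± 5.77 in sgPRMT5-1 and 107 ± 4.11 in sgPRMT5-2 (SD, n = 3). On the TMM scale, all sgPRMT5-1 and sgPRMT5-2 libraries, from 96.7 to 110.0, lay above the highest sgNeg library at 94.2. The margin was narrow, and the separation was not shown to hold by library totals alone, where that of PRMT1 was lost. The sum was 84.9 ± 3.69 in sgWDR77-1 and 100.3 ± 7.71 in sgWDR77-2, where sgWDR77-1 overlapped sgNeg and the lowest sgWDR77-2 library, at 94.2, met the highest control. PRMT1, the most abundant member, carries much of this sum, which was not tested.

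Genes around the family were described from 6 lists. Of 3 other arginine methyltransferases or relatives, NDUFAF7, METTL23 and PRMT8, 2 had enough reads to be tested. Neither NDUFAF7, which methylates a subunit of mitochondrial complex I, nor METTL23, a histone arginine methyltransferase, was called in any of the 9 comparisons. Their log2 fold changes in PRMT5KO were -0.02 and 0.00. In WDR77KO they were -0.04 and 0.08. The tests in each comparison used limma voom with adjustment over all genes. Beside the counts of each list stand the shares over all genes, 8.73% up and 8.30% down in PRMT5KO, 20.9% up and 19.3% down with sgPRMT5-2, and 7.99% up and 6.01% down in PRMT5KO against WDR77KO.

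Of 10 binding partners and regulators, 9 were tested. CREBBP, a histone acetyltransferase that works beside CARM1 at promoters, rose in PRMT5KO (log2 fold change 0.44, limma voom adjusted p = 0.0273), and 0 fell. Its level was 161 ± 10.2 CPM in sgNeg, 196 ± 28.6 in sgPRMT5-1 and 249 ± 13.2 in sgPRMT5-2 (SD, n = 3). The WDR77 guides, without a call, had 199 ± 40.7 for sgWDR77-1 and 203 ± 28.6 for sgWDR77-2. With sgPRMT5-2, 3 rose, CREBBP and EP300 among them, and 3 fell (NCOA2, NCOA3 and BTG2). EP300 is the paralog of CREBBP, and BTG2 binds PRMT1. The list median was -0.03 in PRMT5KO, beside -0.01 over all genes. BTG2 was lower in PRMT5KO than in WDR77KO (log2 fold change -0.84, limma voom adjusted p = 0.00596).

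S-adenosylmethionine supply, use and salvage had 15 of 17 genes tested. In PRMT5KO, 3 rose, namely SMS, MTRR and MAT2A, and 1 fell. MAT2A, which makes S-adenosylmethionine, stood at 155, 177 and 193 CPM in sgNeg, at 194, 196 and 243 CPM in sgPRMT5-1 and at 260.2, 259.6 and 253 CPM in sgPRMT5-2. On the TMM scale the 6 PRMT5KO libraries were all above the controls, a pattern held by 11.5% of 14061 genes. The log2 fold change of MAT2A was 0.41 (limma voom adjusted p = 0.0277). By library totals alone, sgPRMT5-1 replicates 1 and 2 (1273 of 6704352 and 1156 of 5958936 reads) lay below sgNeg replicate 3 (1065 of 5434211 reads). Without a call, MAT2A averaged 216 ± 22.5 CPM in sgWDR77-1 and 209 ± 49.7 in sgWDR77-2, beside 211 ± 27.6 in sgPRMT5-1 (SD, n = 3). SMS, which makes spermine from decarboxylated S-adenosylmethionine and was the most abundant of the list per kilobase of union exons, rose by 0.26 (limma voom adjusted p = 0.0156). MTAP, the salvage enzyme whose loss sensitizes cells to PRMT5 inhibition, was expressed in all conditions, with means of 107 to 137 CPM, and CBS was low at 9 to 23 reads per library. Neither was called in PRMT5KO. The list median was 0.07 in PRMT5KO, beside -0.01 over all genes, and with sgPRMT5-2 there were 4 up and 3 down.

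Known substrates of the members were all measured, 25 of 25. In PRMT5KO 7 rose, among them NCL, HNRNPR, SERBP1, HNRNPU, SAFB and SMARCC1, and 0 fell, where 8.73% of all genes rose and 8.30% fell, with a list median of 0.14 beside -0.01. NCL, nucleolin, stood at 948, 1042 and 1083 CPM in sgNeg, at 1197, 1224 and 1369 CPM in sgPRMT5-1 and at 1497, 1513 and 1539 CPM in sgPRMT5-2. The guides and the control did not overlap, and the log2 fold change in PRMT5KO was 0.42 (limma voom adjusted p = 0.00889). HNRNPU, a nuclear matrix protein, rose by 0.30 (limma voom adjusted p = 0.0108) and SERBP1, an RNA-binding protein, by 0.22 (limma voom adjusted p = 0.0126). In sgWDR77-1, NCL stood at 1648, 998 and 830 CPM. Replicate 1 of that condition was the highest of the 15 libraries for NCL, HNRNPU (1515 CPM) and SERBP1 (1368 CPM). With sgPRMT5-2, 13 rose and 2 fell (KHDRBS1 and G3BP1), beside 20.9% and 19.3% of all genes. RPS2, the PRMT3 substrate and the most abundant of the list per kilobase of union exons, was not called in PRMT5KO (log2 fold change -0.11).

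Methylarginine readers, the Tudor domain proteins that bind methylated arginine, had 8 of 9 genes tested. In PRMT5KO 1 rose, SMNDC1, a splicing factor (log2 fold change 0.31, limma voom adjusted p = 0.0269), and 0 fell, with a list median of 0.18 beside -0.01 over all genes. SND1, the most abundant reader per kilobase of union exons, had a log2 fold change of 0.19 (limma voom adjusted p = 0.0765). SMN2 had 6 to 27 reads per library and is nearly identical to SMN1, so its count is uncertain. SND1 was higher in PRMT5KO than in WDR77KO (log2 fold change 0.23, limma voom adjusted p = 0.0453). TDRD7 and TDRKH were lower in PRMT5KO than in WDR77KO (log2 fold changes -0.36 and -0.43, limma voom adjusted p = 0.0176 and 0.0190). With sgPRMT5-2, PHF1, SMNDC1 and SMN2 rose and TDRD3 fell.

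Enzymes that remove free methylarginine or convert protein arginine had 5 of 8 genes tested, while AGXT2 and PADI4 had 0 reads. In PRMT5KO 1 rose and 1 fell, with a list median of 0.08 beside -0.01 over all genes. DDAH1, which degrades asymmetric dimethylarginine set free from proteins, rose in PRMT5KO (log2 fold change 0.38, limma voom adjusted p = 0.0331). The control mean was 104 ± 4.47 CPM (SD, n = 3), beside 120.5 ± 4.55 for sgPRMT5-1 and 156 ± 7.18 for sgPRMT5-2. The WDR77 guides had 142.5 ± 20.3 for sgWDR77-1 and 117 ± 2.34 for sgWDR77-2. Of the single guides only sgPRMT5-2 passed. PADI2, which turns arginine into citrulline, fell, at 23, 12 and 8 reads in sgNeg, 11, 8 and 7 reads in sgPRMT5-1 and 1, 0 and 0 reads in sgPRMT5-2. In the WDR77 knockouts it had 25, 21 and 55 reads with sgWDR77-1 and 5, 14 and 15 reads with sgWDR77-2. The PADI2 fall thus came mostly from sgPRMT5-2. With that guide JMJD6 and DDAH1 rose and PADI2 and PADI3 fell.

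In WDR77KO, sgPRMT5-1, sgWDR77-1 and sgWDR77-2 against sgNeg, 0 genes of any of the 6 lists were called by limma voom. At an unadjusted p under 0.05, WDR77KO had 0, 3, 0, 1, 2 and 2 genes of the lists in the order above. For sgPRMT5-1 these counts were 0, 1, 3, 6, 2 and 1. For sgWDR77-1 they were 0, 3, 2, 3, 2 and 2, and for sgWDR77-2 they were 0, 2, 1, 4, 1 and 1. Over all genes, an unadjusted p under 0.05 was met by 2274 of 14073 in WDR77KO, 2721 of 14102 with sgPRMT5-1, 2515 of 14202 with sgWDR77-1 and 2923 of 14038 with sgWDR77-2. TDRD7 had the smallest adjusted p of the listed genes in WDR77KO (log2 fold change 0.43, limma voom adjusted p = 0.0681).

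**Figure D5:**
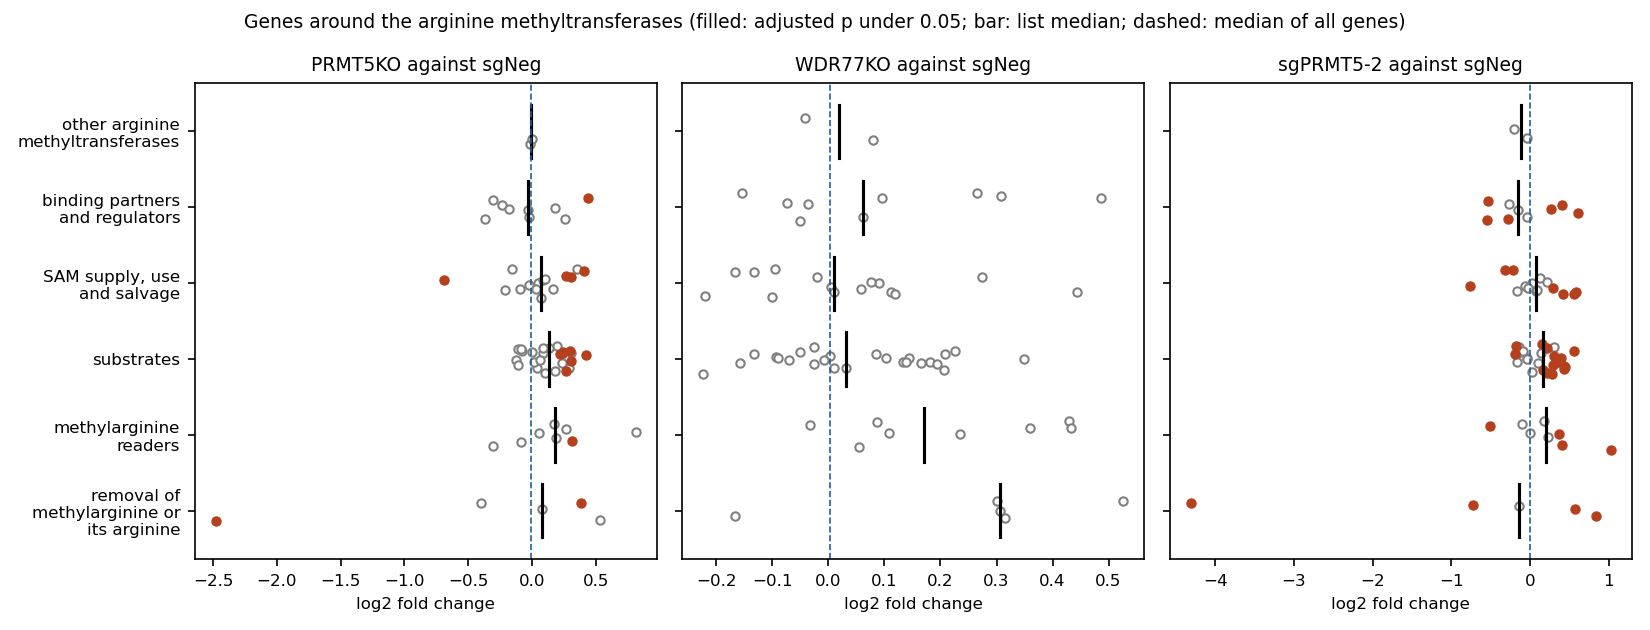
Log2 fold change of each tested gene of the 6 lists in PRMT5KO, WDR77KO and sgPRMT5-2 against sgNeg. Each point is a gene, filled where the limma voom adjusted p is under 0.05, the black bar is the list median and the dashed line the median of all genes, with a different horizontal scale in each panel. WDR77KO has no filled point, and the point farthest left in the other panels is PADI2.

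Among 9221 other genes with a mean normalized count of at least 50, those most like each member over the 15 libraries were named by Pearson r of log2 CPM. They were TNIP2 (r = 0.967) and DUS3L (0.966) for PRMT1, NT5C3B (0.947) and HEATR3 (0.940) for CARM1, and BCS1L (0.957) and LMNB2 (0.936) for PRMT7. For the members without a call they were CSTF2T (0.766) and MEN1 (0.739) for PRMT6, TARS2 (0.766) and KDF1 (0.760) for PRMT2, YWHAQ (0.873) and AIMP1 (0.850) for PRMT3, and ATG12 (0.824) and SUPT20H (0.785) for PRMT9. The libraries share their 5 conditions, so these values describe a pattern and carry no p. Between members, r was 0.810 for PRMT1 and PRMT7, which placed PRMT7 only at rank 867 of the genes most like PRMT1. It was 0.758 for PRMT1 and CARM1, with CARM1 at rank 1271 for PRMT1, and 0.591 for CARM1 and PRMT7, with PRMT7 at rank 1765 for CARM1, while PRMT6 and PRMT1 had 0.02. After subtracting each condition's mean, r was 0.930 for PRMT1 and CARM1. PRMT5 itself then had r of 0.771 with PRMT1, 0.803 with CARM1 and 0.777 with PRMT7, although its r with PRMT1 over the 15 libraries was -0.29. With PRMT9 the values went the other way, at -0.39 for PRMT1, -0.23 for CARM1 and -0.29 for PRMT5, and PRMT1 and PRMT3 had -0.18. PRMT1 had 0.68 with PRMT7, 0.31 with PRMT2 and 0.28 with PRMT6, while PRMT3 and PRMT6, both without a call, had 0.55. The highest values named thus joined members that were called and PRMT5, a targeted gene. Replicate 2 was the lowest sgNeg library for PRMT1, CARM1 and PRMT5 alike.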

How the data were processed

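The deposited values were raw whole-number read counts per gene, which the authors made from single-end reads with STAR and htseq-count on hg38. The annotation release and strand setting were not stated. Library sizes left out the tallies of reads outside genes (2.75% to 7.16%), of those with an ambiguous gene (7.09% to 7.93%) and of multiply placed ones (9.49% to 13.1%).

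Counts were scaled by TMM (trim 0.3 of log ratios and 0.05 of levels), genes with a mean normalized count of at least 3 were kept, and each comparison was tested by limma voom (limma 3.58.1) on its own libraries. P values were adjusted by Benjamini-Hochberg over all genes tested, with a threshold of 0.05. Gene lengths and locations came from GENCODE 44, in which 60507 of 60649 gene identifiers were found. The lists hold known family relatives, partners, S-adenosylmethionine enzymes, substrates, readers and removal enzymes, 72 genes in all. The members and lists were chosen with earlier results of these data known. Some genes of the lists are counted but not reported here by name.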

Additional observations from a re-analysis of the deposited data

Results flagged for a closer look

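Calls on a member that differed between knockouts or between guides of a gene were sought in 21 comparisons, and 2 were found. PRMT1 was higher in PRMT5KO than in WDR77KO (log2 fold change 0.32, limma voom adjusted p = 0.0406, called in 3 of 12 fits that left out a library). CARM1 was higher with sgPRMT5-2 than with sgPRMT5-1 (log2 fold change 0.30, limma voom adjusted p = 0.0197, called in 1 of 6 such fits). A single sample far from the others was sought in 18 groups of 6 libraries by the Dixon ratio of gap to range, and 0 were found.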

How the results depend on the processing

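Over 63 results on members, without the test over 5 conditions, 994 alternative values were made: 936 kept the outcome of the test, 49 lost a call, 9 gained a call and no call turned direction. Fold changes near 0 that were not called did change sign, as for PRMT9 in PRMT5KO, from -0.10 to 0.04 without sgNeg replicate 2. Of 174 counts of calls, 46 moved by over 1.5 times. In PRMT5KO the count of 2 became 1 under library totals alone, no filter and a replicate block, 0 where a log2 fold change of 1 or more either way was required, and 0 to 2 with a library left out. It was 0 without sgNeg replicate 1 or 2, sgPRMT5-1 replicate 3 or any sgPRMT5-2 replicate, and 1 without sgNeg replicate 3. In WDR77KO the count of 0 became 1, CARM1, in 1 fit of 15 libraries. With sgPRMT5-1 the count of 0 became 1, PRMT1, under a block (adjusted p = 0.0439). With sgPRMT5-2 the count of 3 became 0 at a log2 fold change of at least 1. With sgWDR77-1 the count of 0 became 1, PRMT1, without the 3 libraries above 5% of reads outside genes, an alternative chosen after seeing the data. That fit held 1 sgWDR77-1 library against 2 controls, and the library was the one least like its replicates, so the call says nothing about the condition. With sgWDR77-2 the count of 1 became 0 under a block (adjusted p = 0.0739), at a log2 fold change of at least 1 and with any single library left out. Between the PRMT5 guides the count of 1 became 2 under library totals alone, 0 in 1 fit of 15 libraries and at a log2 fold change of at least 1, and 0 to 4 with a library left out, 4 without sgPRMT5-1 replicate 3. Between knockouts the count of 1 became 0 under RLE, library totals alone, a block (adjusted p = 0.0595), the 3 libraries left out and a log2 fold change of at least 1, and 0 to 2 with a library left out, 2 without sgWDR77-2 replicate 1. Replicate numbers did not pair the libraries: r of matched numbers ran from -0.50 to 0.42 over 30 pairs, 5 were over 0.1, and 5 of 15 libraries were closest to their own number. The block ended CARM1 in PRMT5KO (log2 fold change 0.37, adjusted p = 0.0572) and changed no call beyond those named here. With a library left out, all-gene calls ran from 483 to 3562 in PRMT5KO against 2397, 199 to 677 in WDR77KO against 477, 211 to 510 with sgPRMT5-1 against 530, 4675 to 5668 with sgPRMT5-2 against 5693, 56 to 1003 with sgWDR77-1 against 385 and 293 to 661 with sgWDR77-2 against 698. They ran from 1429 to 4711 between the PRMT5 guides against 2690, 0 to 156 between the WDR77 guides against 17, 876 to 3178 between knockouts against 1962 and 3551 to 5867 over 5 conditions against 5032.

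Each condition had 3 libraries, and every fold change against sgNeg shares the same 3 controls. The knockouts were labelled, and edits at the target sites were not read. PRMT5 RNA does not show how much protein remained. Counts are relative, so a change of total RNA per cell would not be seen. These libraries carry no measure of protein, enzyme activity or arginine methylation.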
